A study of Carthamus tinctorius with 15 samples.

Results

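In the oil crop safflower (Carthamus tinctorius), 300 genes stood out by how far their RNA level in leaf exceeded that in root, stem and flower. They were picked from the deposited expression values. For each of the 33242 rows of the table, the mean of log2(FPKM + 1) was taken over the 3 libraries of a tissue. The difference between leaf and the highest of the other 3 tissues, called the margin here, ranked the rows, and the 300 with the largest margins were kept. They are 0.902% of all rows. FPKM corrects fragments for gene length and library total, so it is a level per length. The 4 groups used here were root, stem, leaf and flower with 3 libraries of total RNA each. The labels give the tissue and a replicate number, and no cultivar, age, treatment or growth condition is stated in them. Nor do they tell whether replicates were taken from different plants. The p-values therefore reflect only how these libraries vary, and that variation may be technical. The 3 seed libraries of the series were not analysed here.

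Leaves are the main photosynthetic organ of a plant. The chloroplasts of their mesophyll cells depend on nuclear genes for the small subunit of Rubisco, for chlorophyll-binding proteins and for other parts of the photosynthetic machinery, and such transcripts are among the most abundant in green leaves of many plants. Stems often carry some green cells under the epidermis, whereas roots usually hold few developed chloroplasts. This is background only. Rows of the table used here carry no identifier, so no function is given to any of them below, and the tissue labels were not checked against markers. A gene is named by the number of its row of values, starting at 1, with its length as recovered from FPKM. No sequence is shown for the same reason.

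Library totals recovered from the low FPKM values ran from 26183138 to 31500664 reads. Root replicate 3 and flower replicate 1 stood apart from the other libraries of their tissue for these genes. Root replicate 3 had no read for 47 of the 300 genes, against 93 and 104 in root replicates 1 and 2. Flower replicate 1 had no read for 51, against 98 in each of the other flower libraries. The same counts over all genes tested were not made. Across all genes tested, the median squared difference between replicates was 3.37 to 3.59 times counting noise in the 10 pairs without flower replicate 1. It was 10.2 and 10.5 times in both pairs with it. Over the leaf-specific genes it was 9.28 and 5.97 times for root replicate 3 against replicates 1 and 2, and 3.99 times between those. Flower replicate 1 gave 14.2 and 12.9 times, and flower replicates 2 and 3 gave 4.17 times. These values rest on 71 to 100 of the 300 genes. Some named differences or means moved by over 1.5 times on the linear scale without root replicate 3 or flower replicate 1. The value without that library is given beside them.

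The 300 genes held a large share of leaf expression and very little of that of root and flower. Their summed level was 12.25%, 12.15% and 12.21% of all FPKM in leaf replicates 1, 2 and 3. In stem it was 1.183%, 1.171% and 1.176%. It was 0.172%, 0.1626% and 0.1611% in flower and 0.08267%, 0.08207% and 0.0934% in root. The order leaf, stem, flower, root held in every library, with no overlap between tissues. These values chose the genes where leaf is concerned and carry no test. In whole-tissue RNA, fewer cells of a type cannot be told apart from less RNA per cell. Counted as reads, with no division by gene length, the shares were 12.08% in leaf, 1.182% in stem, 0.188% in flower and 0.1048% in root by the mean of 3 libraries.

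**Figure D1:**
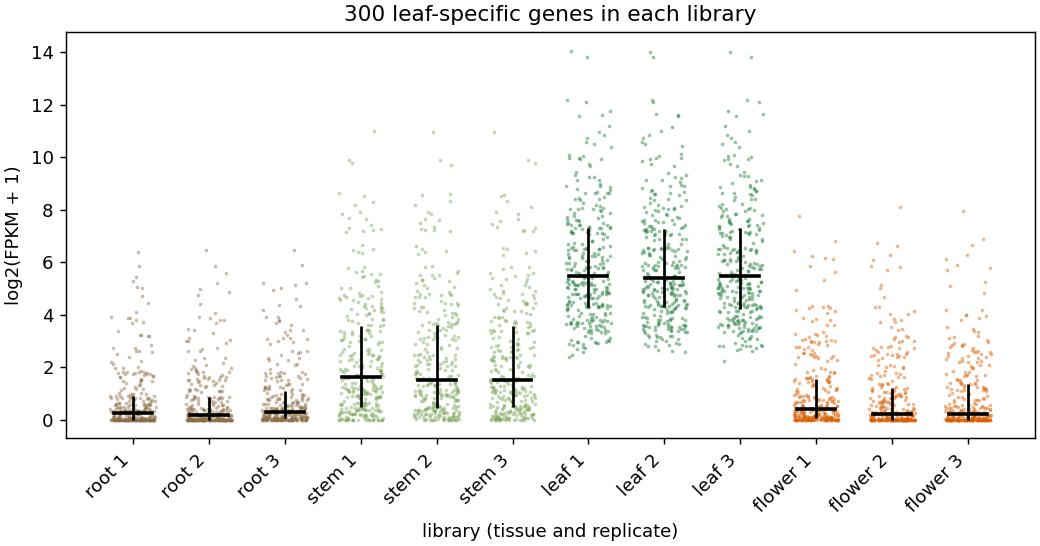
Each point is 1 of the 300 leaf-specific genes in 1 library, as log2(FPKM + 1). The wide bar is the median and the thin bar the range from the lower to the upper quartile. The 12 libraries are grouped by tissue, and after leaf the 3 stem libraries had the highest medians.

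The leading genes were abundant in leaf and close to absent elsewhere. Row 93 (2426 bases) was at 1048, 1062 and 1050.1 FPKM in leaf replicates 1, 2 and 3, and at 2.13, 2.04 and 1.92 FPKM in stem. In root it was at 0.0741, 0.11 and 0.96 FPKM, and in flower at 0.935, 0 and 0.0135 FPKM. The highest values in root and flower were thus those of root replicate 3 and flower replicate 1. Its leaf mean was 519 times its stem mean, and its margin of 8.44 was the largest of all.

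Row 28435 (1314 bases) followed with a margin of 8.30, at 686, 672 and 696 FPKM in leaf and 1.18, 1.45 and 0.921 FPKM in stem. Row 4758 (1274 bases) was at 1007, 994 and 1017 FPKM in leaf and 1.88, 3.28 and 2.57 FPKM in stem. Row 9664 (546 bases) was at 433, 435 and 454 FPKM in leaf and 0.839, 0.38 and 1.14 FPKM in stem. All 4 leaders had stem as the second tissue by its mean, and their leaf means were 390.4 to 579 times their stem means. For row 28435 stem overlapped root, at 0.274, 0.145 and 0.965 FPKM, through root replicate 3 only. For row 9664 stem overlapped flower, at 0.722, 0 and 0.481 FPKM. The second tissue of rows 28435 and 9664 was thus not resolved by 3 libraries. For rows 93 and 4758 every stem library was above all root and flower libraries.

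Few of the genes were as extreme as these. The margin had a median of 3.21, with quartiles of 2.74 and 4.01, and 176 genes reached 3, 76 reached 4, 30 reached 5 and 9 reached 6 on the log2 scale. At the end of the list the margins ran on without a gap. Row 584 (1722 bases), the second to last gene kept, had a margin of 2.4105 and row 3102 (246 bases), the last, one of 2.4099. Row 9107 (285 bases) and row 23916 (1633 bases), the next in order and not kept, had margins of 2.4044 and 2.4036. In all, 493 rows had a margin of at least 2, so the 300 are the upper part of a continuous range.

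A small number of genes made up most of the summed leaf level. The 17 genes with a leaf mean of at least 1000 FPKM held 67.9% of it, the 79 genes from 100 to 1000 FPKM held 25.2%, the 174 from 10 to 100 FPKM held 6.60%, and the 30 below 10 FPKM held 0.239%. The median leaf mean was 41.9 FPKM. Of the 100 most abundant genes of leaf, 22 were among the 300, and of the 100 most abundant genes of stem, 3 were. Of tested genes at 1000 FPKM or more in leaf 25.4% were leaf-specific by this rule. That share was 6.20% from 100 to 1000 FPKM and 1.81% from 10 to 100 FPKM. It was 0.843% of the 3560 tested genes below 10 FPKM but not below 4.83 FPKM, the lowest leaf mean among the 300. Tested genes of lower leaf level were not counted. Part of this order is set by the scale, because a gene of low level cannot gain a large margin on log2(FPKM + 1).

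The most abundant gene was row 29089 (1057 bases), at 17063, 16598 and 16644 FPKM in leaf and 2021, 1984 and 1997 FPKM in stem. In flower it was at 70.4, 56.8 and 58.3 FPKM, and in root at 5.71, 6.9 and 29.9 FPKM. It alone held 17.5% of the summed leaf level of the 300 genes. Its libraries did not overlap between any of the 4 tissues, and its stem mean was 11.9% of its leaf mean.

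Row 20605 (842 bases) was second, at 14518, 14380.5 and 14580.3 FPKM in leaf and 961, 962 and 959 FPKM in stem. Its root values were 2.31, 2.54 and 19.3 FPKM and its flower values 17.1, 0.364 and 0.312 FPKM. Root and flower overlapped for this gene, and 1 library in each tissue was far above its replicates. Without them its mean was 2.42 FPKM in root and 0.338 FPKM in flower.

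At the other end stood genes of low level that were read almost only in leaf. Row 28438 (864 bases) was at 5.5, 5.22 and 3.76 FPKM in leaf, with 5 reads over the other 9 libraries. Row 10370 (1490 bases) was at 4.58, 5.39 and 6.2 FPKM in leaf, with 9 reads elsewhere. In all, 19 genes had at most 10 reads in the other 9 libraries together. Row 30768 (129 bases) had 120 leaf reads and none elsewhere, and was named by its spread in leaf. Its leaf values of 9.27, 14.5 and 5.92 FPKM gave a mean at least 111 times higher than elsewhere, taking 3 reads over the 9 libraries as the upper limit of a count of 0. That limit covers counting error only.

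**Figure D2:**
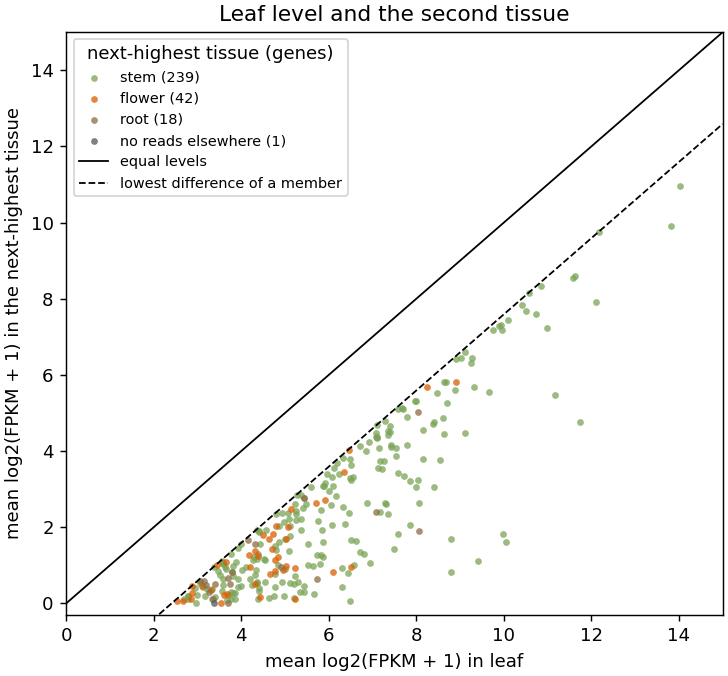
Each point is 1 of the 300 genes, with its mean log2(FPKM + 1) in leaf on the horizontal axis and in the next-highest tissue on the vertical axis, coloured by that tissue. The solid line marks equal levels and the dashed line the lowest margin kept. All 17 genes at 1000 FPKM or more in leaf have stem as the second tissue.

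Stem was the second tissue for 239 of the 300 genes (79.7%), flower for 42 and root for 18, and row 30768 had none. Among the 4729 tested genes with their highest mean in leaf, whatever the margin, stem came second in 58.9%, root in 25.2% and flower in 15.7%. The rule used these means, so the counts are a description. All 17 genes at 1000 FPKM or more in leaf had stem second, as did 74 of 79 from 100 to 1000 FPKM, 133 of 174 from 10 to 100 FPKM and 15 of 30 below 10 FPKM. Without root replicate 3 and flower replicate 1, stem was second for 245 genes, flower for 34 and root for 20. With median-ratio scaling of the libraries the counts moved the other way, to 224 for stem, 57 for flower and 18 for root. The median stem level was 5.09% of the leaf level, with quartiles of 1.61% and 11.1%. The median was 0.42% in flower (0.379% without flower replicate 1) and 0.261% in root (0.2095% without root replicate 3).

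The genes also differed in how many other tissues expressed them. Below a mean of 1 FPKM in all 3 other tissues were 101 genes. Another 92 reached 1 FPKM in 1 other tissue, which was stem for 81, flower for 9 and root for 2. A further 55 reached it in 2 other tissues, and 52 in all 3. Without root replicate 3 and flower replicate 1 these 4 counts were 101, 93, 61 and 45.

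Genes with root or flower second were found mostly at lower leaf levels. The median leaf mean was 57.8 FPKM for genes with stem second, 24.7 FPKM with flower second and 12.6 FPKM with root second. The best ranked with root second was row 30761 (2846 bases), at 266, 273 and 262 FPKM in leaf. It was at 2.41, 2.5 and 3.37 FPKM in root and 2.04, 2.14 and 1.78 FPKM in stem, close together but not overlapping. Row 2817 (1479 bases) came next, with a leaf mean of 52.4 ± 2.68 FPKM (SD, n = 3), at 0.535, 0.31 and 0.927 FPKM in root and 0.333, 0.374 and 0.177 FPKM in stem. These values overlap.

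With flower second, the best ranked were row 1957 (358 bases) and row 15756 (1294 bases). Row 1957 was at 92.9, 91.3 and 83.9 FPKM in leaf, 1.74, 0.856 and 0.458 FPKM in flower and 0.885, 0.386 and 1.01 FPKM in stem. Row 15756 was at 65.7, 69.1 and 68.8 FPKM in leaf, 0.635, 1.11 and 0.583 FPKM in flower and 1.03, 0.267 and 0.759 FPKM in stem. For both genes flower and stem overlapped, so which tissue is second was not resolved by 3 libraries.

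Differences among root, stem and flower leave out leaf and were tested with limma on log2(FPKM + 1). A gene was called at a Benjamini-Hochberg adjusted p under 0.05, over the 20769 genes that reached 1 FPKM in 3 or more libraries, and a difference of at least 1. All 300 genes passed that filter through their leaf libraries. The rule still limits how high the highest of the 3 tissues can be, and genes near 0 in both tissues could not reach the difference of 1.

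By limma 144 of 300 leaf-specific genes (48.0%) were higher in stem than in root, and 11% of all genes tested were called in that direction. Higher in root were 3 (1.0%), against 8.93% of all genes. Below a mean of 1 FPKM in both tissues were 110 of the 300, which could hardly be called in either direction, so nothing is read from the low count in root. The median difference of stem minus root was 0.91 over the 300 genes and -0.08 over all genes. The 3 stem libraries were all above the 3 root libraries for 219 genes (73.0%), and this held for 28.5% of all genes tested. The reverse held for 10 genes, against 40.4% of all.

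The largest excess of stem over root was that of row 4714 (808 bases), at 882, 825 and 870.4 FPKM in stem and 2.31, 1.09 and 7.63 FPKM in root. Stem minus root was 7.78 as log2(FPKM + 1) (SE 0.37, limma adjusted p = 4.26e-09), and 8.35 without root replicate 3. Row 29089 was next, with 7.41 (SE 0.42, limma adjusted p = 2.41e-08), which was 8.10 without root replicate 3. The other direction was led by row 16526 (1948 bases), at 5.205, 5.12 and 7.35 FPKM in root, 1.03, 0.355 and 0.42 FPKM in stem and 0 in all flower libraries. Its root minus stem difference was 2.11 (SE 0.16, limma adjusted p = 2.71e-07). Row 15719, 868 bases long, was at 31.3, 28.03 and 35.7 FPKM in root and 10.8, 11.1 and 11.9 FPKM in stem, and root minus stem was 1.41 (SE 0.13, limma adjusted p = 1.60e-06). Its leaf values were 260.1, 265 and 262 FPKM.

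Stem also exceeded flower for 136 genes (45.3%) by limma, but so did 39% of all genes tested. The median difference of stem minus flower was 0.87 over the 300 genes and 0.58 over all genes. In the other direction 7 genes were called (2.33%), against 16.3% of all genes. Below a mean of 1 FPKM in both tissues were 103 of the 300, which could hardly be called in either direction. Nothing is therefore read from the low count in flower. The stem libraries were all above the flower libraries for 220 genes (73.3%), against 58.5% of all genes, and all below for 20, against 27.6% of all. Median-ratio scaling of the libraries brings the median difference over all genes from 0.58 to 0.06. After it 112 of the 300 were higher in stem, against 28.2% of all genes, and 12 were higher in flower, against 24.9% of all genes. The median over the 300 was then 0.61.

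Row 20605 had the largest excess of stem over flower, 8.24 as log2(FPKM + 1) (SE 0.91, limma adjusted p = 3.38e-06), which was 9.49 without flower replicate 1. Row 2778 (935 bases) was at 169.7, 177 and 174 FPKM in stem and 1.44, 0 and 0 FPKM in flower, and stem minus flower was 7.02 (SE 0.31, limma adjusted p = 5.33e-10). In leaf it was at 1085, 1099.95 and 1093 FPKM. On the flower side stood row 7958 (2165 bases), at 16.5, 3.07 and 2.94 FPKM in flower and 0.716, 0.782 and 0.967 FPKM in stem. Its flower minus stem difference was 1.85 (SE 0.44, limma adjusted p = 0.00193) and 1.14 without flower replicate 1. Row 15682 (2486 bases) was at 2.56, 1.99 and 2.14 FPKM in flower and 0.269, 0.292 and 0.0263 FPKM in stem, with leaf at 32.2, 30.8 and 31.5 FPKM. It differed by 1.44 (SE 0.11, limma adjusted p = 7.78e-08).

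Root and flower were both low for most of the genes, and 182 of 300 were below a mean of 1 FPKM in both. By limma 51 (17%) were higher in flower, a share near the 17.3% of all genes tested. Higher in root were 21 (7.0%), against 39.8% of all genes. The median difference of root minus flower was -0.004 over the 300 genes and 0.61 over all genes. The flower libraries were all above the root libraries for 89 genes, against 27.7% of all genes, and all below for 61, against 58.3% of all. Under median-ratio scaling, which brings the median over all genes to 0.01, 64 of the 300 were higher in flower and 14 in root. Of all genes tested, 26.3% were then higher in flower and 27.8% in root. The 182 genes below 1 FPKM in both tissues could hardly be called in either direction. Nothing is therefore read from the root or flower shares of the 300, as deposited or after scaling.

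Row 4714 led the flower side here too, at 215, 275 and 247 FPKM in flower, with flower minus root at 5.97 (SE 0.37, limma adjusted p = 1.27e-08), which was 6.54 without root replicate 3. Row 28040, 1410 bases long, was at 29.5, 31.2 and 32.9 FPKM in flower and 0.102, 0 and 0.486 FPKM in root, and flower minus root was 4.77 (SE 0.12, limma adjusted p = 2.27e-12). In stem it was at 82.1, 78.2 and 75.7 FPKM and in leaf at 613, 588 and 621 FPKM. Row 15719 led the root side, with 0.416, 0 and 0 FPKM in flower and root minus flower at 4.86 (SE 0.13, limma adjusted p = 4.60e-12). Row 18880, 809 bases long, was at 14.3, 12.9 and 13.9 FPKM in root and 1.91, 0.884 and 0.405 FPKM in flower, and root minus flower was 2.90 (SE 0.19, limma adjusted p = 2.41e-08).

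**Figure D3:**
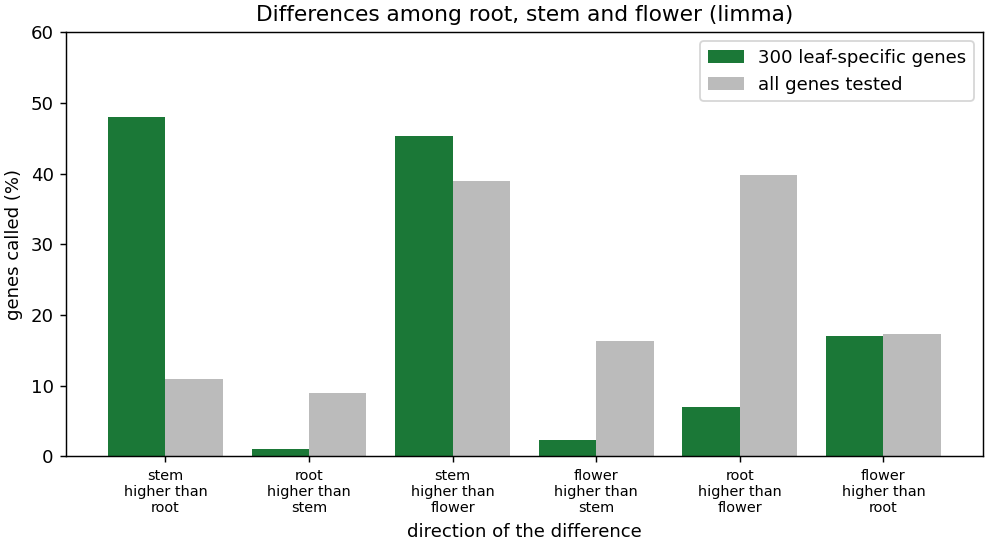
Bars give the percent of genes called by limma in each direction among root, stem and flower, for the 300 leaf-specific genes (green) and for all genes tested (grey). The green bar is over 4 times the grey one for stem above root (48.0% and 11%) and close to it for flower above root (17% and 17.3%).

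**Figure D4:**
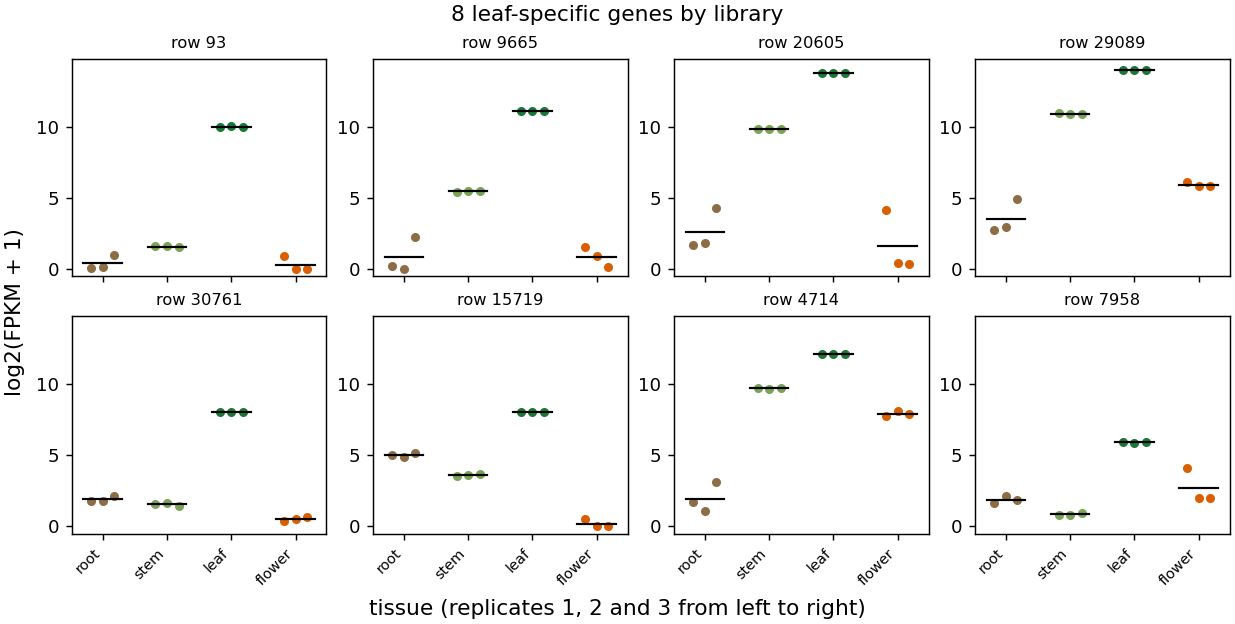
Levels of 8 leaf-specific genes on the log2(FPKM + 1) scale, with 1 point for each library and a bar at the mean of the 3 libraries of a tissue. Rows 93, 4714, 9665, 15719, 20605, 29089 and 30761 have root replicate 3 above the other root libraries. Row 15719 has root above stem, and rows 4714 and 7958 differ in the order of stem and flower.

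Within root, replicate 3 was highest more often for the leaf-specific genes than for all genes. Root replicate 3 was the highest root library for 136 of the 300 genes (45.3%), and it was so for 36% of all genes tested. Root replicates 1 and 2 were each highest for 65, against 31.6% and 30.6% of all genes. Flower replicate 1 was the highest flower library for 148 (49.3%), a share near the 45.4% of all genes, and replicates 2 and 3 for 52 and 62, against 26% and 25.6%. After median-ratio scaling the counts were 132 for root replicate 3, against 32.2% of all genes, and 137 for flower replicate 1, against 36.7%. The 3 stem libraries were highest for 97, 99 and 99 genes, close to the 32.8%, 33% and 32.8% of all genes, and the leaf libraries for 96, 103 and 101, against 32.6%, 33.6% and 32.3%. Of the 300 strongest flower-specific genes by the same rule, 142 were also highest in root replicate 3.

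Root replicate 3 and flower replicate 1 were also compared with their replicates by leaf level. Of the 96 genes at 100 FPKM or more in leaf, 57 (59.4%) were highest in root replicate 3, and of the 204 below that level 79 were. Root replicates 1 and 2 were highest for 20 and 17 of the 96 and for 45 and 48 of the 204. Genes with tied values, such as no reads, had no highest library. The shares of all genes tested at these leaf levels were not counted, so nothing is read from the difference between the classes. The summed level of the 300 genes was 637, 632 and 719.8 FPKM in root replicates 1, 2 and 3. The excess of replicate 3 over the mean of the other root libraries was 0.0697% of the leaf mean by the median of the 96 genes, with quartiles of -0.00255% and 0.117%. In root replicates 1 and 2 the same median was -0.0417% and -0.0462%. In flower replicate 1 it was 0.0653%, with quartiles of -0.0587% and 0.159%. There 59 of the 96 genes (61.5%) were highest, against 45.4% of all genes tested at any leaf level. The largest excess in root replicate 3 was that of row 20605, followed by row 9665 (546 bases), at 0.198, 0 and 3.89 FPKM in root and 2306, 2274 and 2311 FPKM in leaf. The largest in flower replicate 1 were those of rows 20605 and 7958. What these libraries share beyond the values given was not tested.

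**Figure D5:**
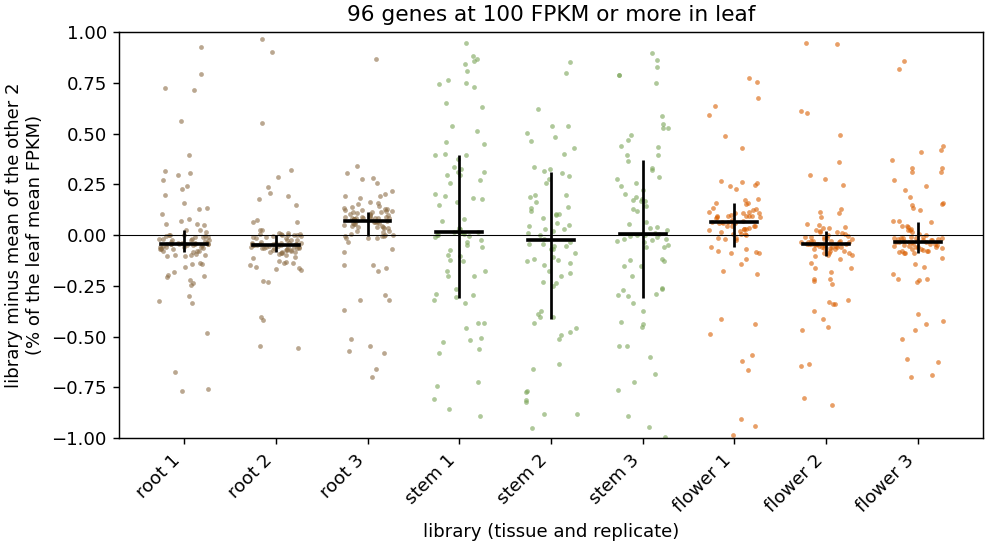
For the 96 genes at 100 FPKM or more in leaf, each point is the FPKM in 1 library minus the mean of the other 2 libraries of that tissue, as a percent of the gene's leaf mean. Wide bars are medians and thin bars run between the quartiles. Of 864 points, 95 lie beyond the plotted range of 1% in either direction, and the medians of root 3 and flower 1 are above 0, at 0.0697% and 0.0653%.

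The leaf libraries agreed closely on the abundant genes and less so on the rare ones. The median coefficient of variation among the 3 leaf libraries was 3.84% over the 300 genes. It was 0.679% at 1000 FPKM or more, 1.93% from 100 to 1000 FPKM, 5.34% from 10 to 100 FPKM and 13.1% below 10 FPKM. Over all tested genes of these levels in leaf it was 0.780%, 2.11%, 5.03% and 8.87%, the last without genes below 4.83 FPKM in leaf. Above 10% were 55 of the 300 genes, and above 20% were 10. Row 22892 (141 bases) had the widest spread on the log2 scale, at 5.73, 9.23 and 14.7 FPKM in leaf, followed by row 30768. These 2 genes had 131 and 120 leaf reads in all. The median squared difference between leaf libraries was 3.35 to 3.52 times counting noise over the leaf-specific genes and 3.37 to 3.52 times over all genes tested.

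The recovered length of the leaf-specific genes had a median of 1181.5 bases, with quartiles of 771 and 1840 bases, and all tested genes had a median of 1350 bases with quartiles of 745 and 2059 bases. No test was made, and the recovered length of a gene with few reads can be too short. The deposited order of rows placed some of them side by side. Of the 300, 26 (8.67%) had another of the 300 in the next or the previous row. For the flower-specific and root-specific genes by the same rule this was 12.7% and 13.7%. The sources do not say what the order of rows stands for.

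The longest runs were 3 rows each. Rows 9663, 9664 and 9665 all had a recovered length of 546 bases, and their leaf means were 3398 ± 132, 441 ± 11.4 and 2297 ± 20.3 FPKM (SD, n = 3). Their stem means were 26.4 ± 1.2, 0.786 ± 0.382 and 43.7 ± 0.452 FPKM. In flower row 9663 was at 19.0, 18.8 and 17.3 FPKM, above row 9664 at 0.722, 0 and 0.481 FPKM and row 9665 at 1.99, 0.873 and 0.12 FPKM. The order of rows 9663 and 9665 was thus opposite in leaf and stem, with no overlap in either. The treatment of reads that match several genes is not stated, so the levels of neighbours of equal length are uncertain where their sequences are alike.

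Rows 2246, 2247 and 2248 had lengths of 3903, 828 and 1515 bases and leaf means of 25.1 ± 1.32, 23.95 ± 3.93 and 20.01 ± 1.59 FPKM (SD, n = 3). In leaf the values of row 2247 overlapped those of both neighbours, and rows 2246 and 2248 did not overlap. Row 2246 was read in stem, at 1.08, 0.841 and 1.11 FPKM, and in flower, at 2.1, 1.34 and 1.6 FPKM. Rows 2247 and 2248 had 8 and 13 reads over the 9 libraries of other tissues.

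By the same rule, the 300 strongest flower-specific genes had larger margins than the leaf-specific ones, with a median of 5.48 and a lowest value of 4.30, and the 300 strongest root-specific genes had smaller ones, with a median of 2.74 and a lowest value of 2.04. The flower list held 17.2% of flower FPKM and the root list 3.29% of root FPKM, against 12.2% for the leaf list in leaf. Below 1 FPKM in all other tissues were 169 of the flower list, 147 of the root list and 101 of the leaf list. The second tissue was stem for 161 of the root list, and leaf for 117, root for 87 and stem for 87 of the flower list. Each list was chosen on its own margins, so these differences carry no test.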

How the data were processed

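The authors deposited FPKM, 1 column for each of 12 libraries, whose titles are the column names. HTSeq, HISAT2, fastp and R 3.2.0 appear in the submitters' processing notes, with no role or order. Genome build, annotation and strandedness: not given in the sources used here.

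Reads were recovered from the deposited FPKM. Ratios of low values gave relative library totals, and whole-base lengths gave the totals. The smallest length that made a row whole in every library within 0.01 reads was kept. Of 33242 rows, 6617 were 0 throughout, and all other 26625 (100%) came out whole. A read may be a pair.

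All 12 libraries entered one fit of log2(FPKM + 1) with limma 3.58.1 (R 4.3.3), with a mean for each tissue, a mean-variance trend and 8 residual degrees of freedom. On this scale changes of low genes are understated. The fit was tested on simulated data. Genes were named by ranks of margin, leaf level, pair difference, library excess, leaf spread and runs of rows. The members, named genes and tests were chosen with earlier results of these data known. The alternatives were another pseudocount, scaling, filter and set of libraries, and the replicate block.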

Additional observations from a re-analysis of the deposited data

How the results depend on the processing

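The list depended most on the pseudocount. With 0.1 in place of 1, 212 of the 300 genes were kept, and 285 were kept with median-ratio scaling, 300 with the log of the mean FPKM, and 292 to 300 when 1 library was left out. With a pseudocount of 0.1, 11 of the 300 were higher in root than in stem, 16 higher in flower than in stem, 56 higher in root than in flower and 78 higher in flower than in root, against 3, 7, 21 and 51. Of all genes 11.4%, 17.7%, 44.3% and 18.9% were then called in these directions. The 2 counts with stem higher also rose. Higher in stem than in root were 199, against 144 with a pseudocount of 1, and 13.7% of all genes were then called. Higher in stem than in flower were 202, against 136 with a pseudocount of 1, and 44.3% of all genes were then called. With median-ratio scaling 12 were higher in flower than in stem. Leaving out 1 library gave 139 to 144 genes higher in stem than in root, 3 to 4 in root than in stem, 135 to 139 in stem than in flower, 6 to 11 in flower than in stem (11 without flower replicate 2), 20 to 23 in root than in flower and 47 to 56 in flower than in root. Without both root replicate 3 and flower replicate 1 the 6 counts were 141, 4, 139, 6, 25 and 47. By reads, the genes held 12.08% in leaf, 0.1048% in root and 0.188% in flower. The cause of these changes was not tested. The 12 named differences among root, stem and flower stayed called under all 18 alternatives run, as the largest of their kind. For each of them the adjusted p was higher when only the 2 tissues compared were fitted. For stem minus root the limma adjusted p was then 3.14e-05 for row 4714 and 7.74e-05 for row 29089. Same-numbered libraries did not deviate together (18 correlations from -0.0365 to 0.0251). Because the variation may be technical, this cannot tell whether same-numbered libraries came from the same plant. With the replicate block the 6 counts were 143, 3, 136, 7, 21 and 51. The table's depth of 26183138 to 31500664 reads limits genes with few reads.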
